A study of Mus musculus with 15 samples.

Results

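The passage from the ovulated egg to the late zygote was followed in 5 of the series' 15 libraries, all from female mice heterozygous (Het) for Eif4e1b. The earlier group was 2 libraries of M2 eggs and the later group 3 libraries of PN5 zygotes, chosen by their labels of stage and donor genotype. M2 denotes the egg arrested at the second meiotic metaphase, and PN5 the last pronuclear stage before the first cleavage. All donors were of the B6D2F1 strain and carried an HA tag on Rpl22, part of the large ribosomal subunit, so that ribosomes could be pulled down with anti-HA beads. The control donors thus also carried the tag and 1 altered Eif4e1b allele, and no library of an untagged or wild-type donor was analysed here. The question was which mRNAs were gained and lost on ribosomes after fertilisation. About 200 eggs or zygotes were pooled for each library, and the labels name neither the animals behind a library nor the genotype of the zygotes themselves. The other groups were 2 M2 and 3 PN5 libraries of Eif4e1b knockout (KO) donors. In addition there were early 2-cell libraries (about 100 embryos each), 3 of Het and 2 of KO donors. Values of these groups are given only beside the Het values. All 15 libraries, however, entered the gene filter, the scaling and the spread used in the main test.

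The fully grown egg makes almost no new RNA, and the zygote begins to transcribe only weakly before the first cleavage. In this window protein synthesis therefore draws on mRNAs that the egg stored, some of which are masked until meiosis resumes or until fertilisation. The fragments that a ribosome shields from RNase give a reading of which of these mRNAs it holds.

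Little of each library was mRNA. Total counts ran from 409584 to 1201146 over the 5 libraries, of which ribosomal RNA rows took 76.8% to 91.9% and mitochondrial rows 5.53% to 18.2%. Once both were dropped, 12322 to 43831 counts were left, and 8614 to 36920 of them lay in protein-coding genes. Zygote library 3 was the shallowest, with 8614 protein-coding counts in 461 genes. The other 4 libraries held 20907 to 36920 such counts in 863 to 1679 genes. At an equal depth of 8614 counts, 1005 and 647 genes were expected in the eggs and 1156, 733 and 461 in the zygotes, so that zygote library 3 stayed lowest after depth was matched. The unannotated row CT010467.1 took 1.196% and 3.73% of the remaining counts in the eggs and 2.96%, 12.2% and 21.2% in the zygotes. Its part in the results was not tested. Levels are given below as CPM, counts scaled to a common library size, taken as the sum over the 533 tested genes times a TMM factor, and ± marks the SD between the libraries of one group unless SE is named.

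The targeted gene and most defining mRNAs of the egg were listed at 0. Such a 0 may be a missing mRNA or a failed estimate, which the files do not tell apart, since mRNAs that every cell uses were at 0 in some libraries too. Eif4e1b (ENSMUSG00000074895, chromosome 13, 54783994 to 54788459 on GRCm38), an oocyte form of the cap-binding factor eIF4E, had 0 counts in all 15 libraries. A floor of 3 counts over the group corresponds to 83.5 CPM in the Het eggs and 43.9 CPM in the Het zygotes, which covers counting error only and not a failed estimate. Of 15 oocyte markers in the table, 10 were listed at 0 in all 5 libraries, among them the egg coat genes Zp1, Zp2 and Zp3, the growth factors Gdf9 and Bmp15, and Btg4, a factor of maternal mRNA decay. The other oocyte markers were Npm2 with 321 counts, all in zygote library 2, Nlrp5 with 42, Zar1 with 11, Ooep with 4 and Mos with 3. Summed oocyte markers took 0% and 0.0764% of the protein-coding counts in the eggs and 0.0190%, 1.07% and 0.0116% in the zygotes. Markers of sperm (9 genes), blood (5 genes) and zygotic genome activation (5 genes) were at 0 in all 5 libraries.

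A gene was often listed at 0 in one library and well counted in another of the same group. The protein-coding genes with a count numbered 1619 in at least 1 egg library and 526 in both, and 2188 in at least 1 zygote library and 262 in all 3. Only 196 genes had counts in all 5 libraries, yet they held 46.5% to 81.3% of the protein-coding counts. Of the 457 protein-coding genes tested, 12 were listed at 0 in one egg library with at least 50 counts in the other, and 86 in this way among the zygotes. Psip1, a chromatin-bound transcription coactivator, had 628 and 0 counts in the eggs and 809, 710 and 0 in the zygotes. Canx, a chaperone of the endoplasmic reticulum, had 0 and 783, then 0, 791 and 0. Among mRNAs that every cell uses, Eef1a1, the elongation factor that brings tRNA to the ribosome, had 3 and 0 counts in the eggs and 53, 6 and 0 in the zygotes. No fold is therefore given against a group listed at 0.

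The same mRNAs led in eggs and zygotes. Of the 12 protein-coding genes with the highest mean share in eggs, 10 were among the 12 highest in zygotes, where Acbd3 and Metap2 took the places of Canx and Cdk11b. Ncl (ENSMUSG00000026234, chromosome 1, 86344719 to 86359455), which encodes the nucleolar protein nucleolin, took 11.3 ± 0.500% of protein-coding counts in the eggs (n = 2) and 4.31 ± 0.542% in the zygotes (n = 3). Eif5b, the initiation factor that joins the ribosomal subunits, took 5.06% and 7.37% in the eggs and 3.49%, 3.39% and 11.7% in the zygotes. The zygote range of Eif5b enclosed the egg values. The histone chaperone Anp32b took 5.81 ± 1.24% and 3.32 ± 0.930%, the actin-binding protein Nexn 5.80 ± 1.94% and 4.32 ± 1.65%, and the RNA-binding protein Lrrfip1 3.64 ± 1.34% and 4.31 ± 2.89%. The DNA topoisomerase Top1 took 2.67 ± 0.760% and 2.96 ± 1.29%, and the chromatin remodeller Atrx 1.24 ± 0.0697% and 1.08 ± 0.324%. As shares, Nexn, Lrrfip1, Top1 and Atrx overlapped between eggs and zygotes, and Anp32b did not, while in CPM all 5 overlapped. The cyclin-dependent kinase Cdk11b had 280 and 354 counts in the eggs and 308, 761 and 0 in the zygotes.

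**Figure D1:**
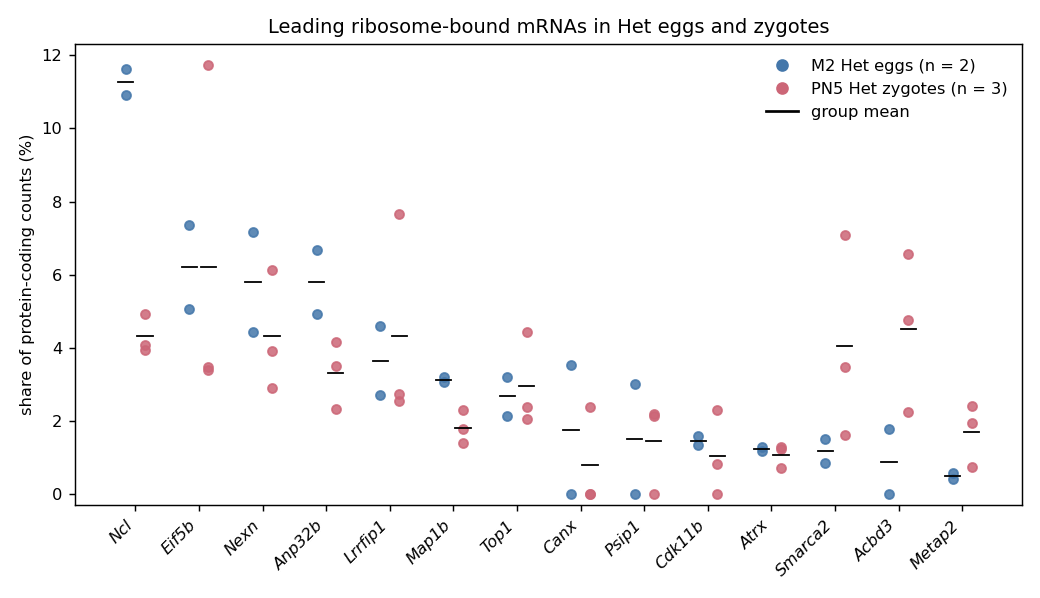
Share of protein-coding counts (%, vertical axis) of the mRNAs that led in eggs or zygotes, with each point 1 library and each black bar a group mean. Ncl lay at 10.9% and 11.6% in the eggs and between 3.93% and 4.93% in the zygotes, while eggs and zygotes overlap for Eif5b, Nexn, Lrrfip1 and Top1.

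Among mRNAs counted in every library, Nusap1 was higher and Ncl lower in all 3 zygote libraries than in either egg library. Nusap1 (ENSMUSG00000027306, chromosome 2, 119618298 to 119650165), which bundles spindle microtubules, was at 205 and 1220.5 CPM in the eggs (4 and 20 counts) and 5813, 13027 and 14900.5 CPM in the zygotes (195, 325 and 147 counts). The groups did not overlap, and the zygote mean of 11247 ± 4798 CPM (n = 3) was 15.8 times the egg mean of 713 ± 718 CPM (n = 2). The fitted log2 fold change was 3.97 (SE 1.42), with an unadjusted p of 0.0129 and an adjusted p of 0.938 by edgeR's quasi-likelihood test. Ncl was at 116923 and 157927 CPM in the eggs and 43286, 65656 and 35579 CPM in the zygotes. Every zygote library lay below both egg libraries, with a log2 fold change of -1.51 (SE 0.89) and an adjusted p of 0.938 by the same test. Neither difference passed the test. Of the 154 protein-coding genes tested and counted in all 5 libraries, Nusap1 had the smallest p.

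No gene passed the test between eggs and zygotes. With edgeR's quasi-likelihood test and Benjamini-Hochberg adjustment, 0 of 533 genes (0%) were called at an adjusted p under 0.05, and the smallest adjusted p was 0.938. Without adjustment, 17 genes (3.19%) had p under 0.05, of which 9 were higher (1.69%) and 8 lower (1.5%) in zygotes. The limma-voom test called 0 genes, and 36 had p under 0.05 before adjustment. DESeq2 called 3 genes, all higher in zygotes: Nusap1 (adjusted p = 0.0183), Dek (adjusted p = 0.000983) and Chaf1a (adjusted p = 0.0162). Dek and Chaf1a were listed at 0 in both eggs and in zygote library 3. Replicates are separate libraries by their labels only. The p-values rest on the spread within groups over all 15 libraries, in part shared between genes, which may be technical.

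Over mRNAs counted in all 5 libraries, egg and zygote libraries were about as alike as libraries of the same stage. Such a set leaves out every mRNA counted at 1 stage only. Over the 154 tested protein-coding genes with counts in all 5 libraries, the Spearman correlation of log2 CPM was 0.658 between the eggs, 0.580 to 0.735 between zygotes and 0.398 to 0.765 between an egg and a zygote. The median size of the log2 difference of a gene was 1.00 between the eggs, 0.860 to 1.11 between zygotes and 0.914 to 1.45 between an egg and a zygote. Averaged over pairs, this median was 0.976 between zygotes and 1.10 between an egg and a zygote. These are descriptions across genes of the same libraries, which share depth, and genes are not independent replicates. A difference of 2-fold was thus common within a stage: 50% of these genes differed by more than that between the eggs. The lowest likeness in the series of pairs, 0.398, was that of egg library 1 and zygote library 3.

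**Figure D2:**
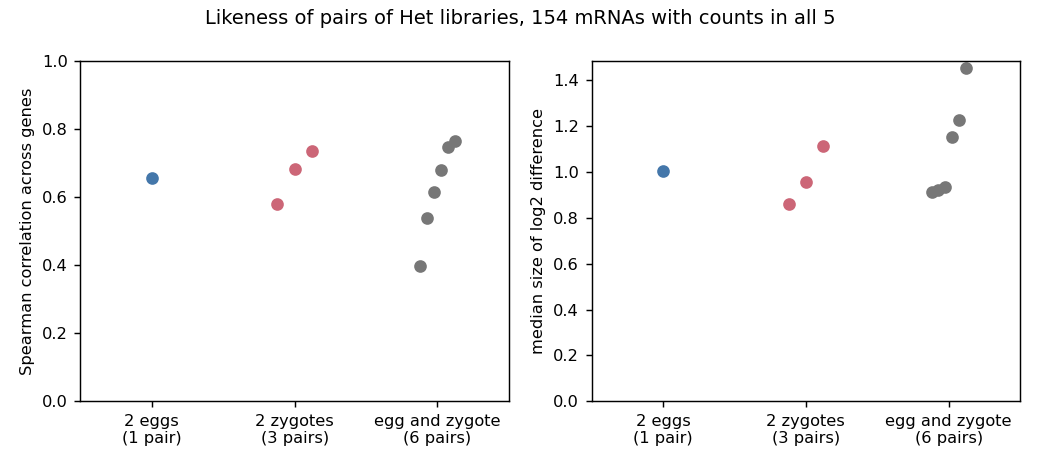
Likeness of all 10 pairs of Het egg and zygote libraries over 154 mRNAs, as the Spearman correlation of log2 CPM (left) and the median size of the log2 difference (right), 1 point a pair. Pairs across the stages span 0.398 to 0.765 and enclose the pairs within a stage, 0.580 to 0.735.

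The 2 groups did not overlap for 30 of the 457 tested protein-coding genes with the zygotes above (6.56%) and for 43 with the zygotes below (9.41%). Among the 154 with counts in all 5 libraries these numbers were 23 and 21. Only 10 arrangements of 2 and 3 libraries exist, so a lack of overlap is common without any change. Beside Nusap1, the zygotes lay above the eggs for Metap2, the aminopeptidase that removes the first methionine of new proteins. It was at 4456 and 7933 CPM in the eggs and 8168, 25974 and 21084 CPM in the zygotes, which edgeR fitted as a log2 fold change of 1.57 ± 1.14 (SE) with an adjusted p of 0.979. Taf7, a subunit of the general transcription factor TFIID, was at 973 and 1465 CPM in the eggs and 1729, 3567 and 4764 CPM in the zygotes. Zygote library 1 lay nearest to the eggs for both genes. Acbd3, a Golgi protein, was listed at 0 in egg library 1 and at 24043 CPM in egg library 2, against 24654, 63331 and 57270.5 CPM in the zygotes, so that one zygote almost touched the higher egg.

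**Figure D3:**
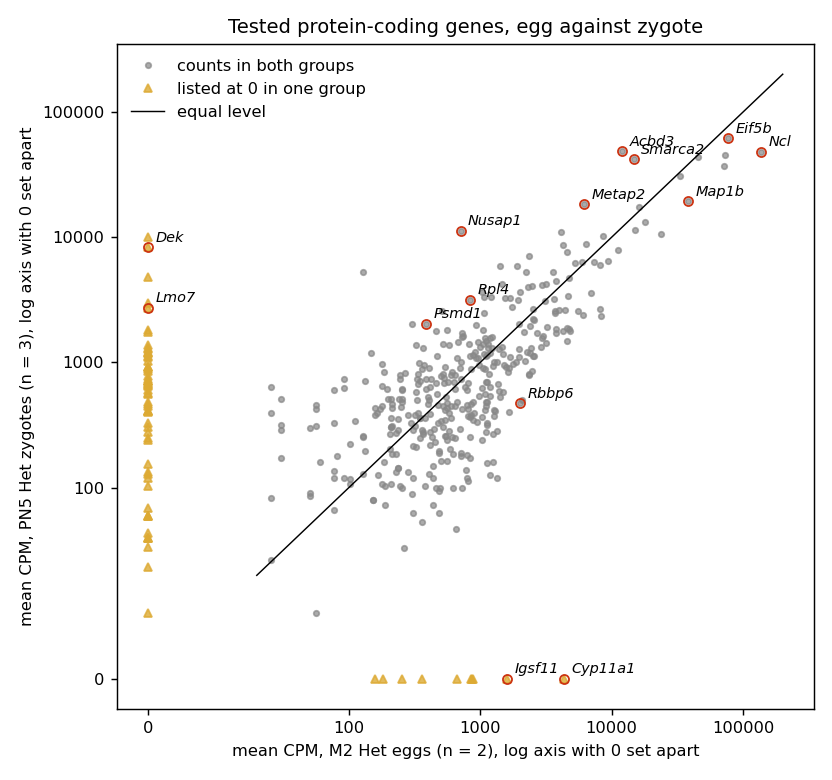
Mean CPM of each tested protein-coding gene in M2 Het eggs (horizontal, n = 2) and PN5 Het zygotes (vertical, n = 3) on log axes, with genes listed at 0 in one group as triangles on a separate line. Nusap1 lies at 713 and 11247 CPM and Ncl at 137425 and 48174 CPM, and 0 genes passed the test.

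The 12 mRNAs with the smallest p toward higher levels in zygotes (at least 100 CPM) were, apart from Nusap1, all listed at 0 in both eggs. Lmo7, which links actin to cell junctions, had 62, 115 and 17 counts in the zygotes. The histone demethylase Kdm5b had 7, 10 and 6, and Dkc1, the pseudouridine synthase of small nucleolar RNPs, had 3, 18 and 13. These 3 were counted in every zygote library. The remaining 8 were counted in zygote libraries 1 and 2 and listed at 0 in library 3. Dek, a chromatin protein, had 291 and 405 counts in those libraries. Bptf, the largest subunit of the NURF remodeller, had 94 and 65. The translation initiation scaffold Eif4g1 had 37 and 22, and Paip2, which binds the poly(A)-binding protein and restrains translation, had 49 and 47. Las1l, which acts in the processing of pre-ribosomal RNA, had 30 and 31. Wasf2, an activator of actin branching, had 49 and 55, and Arhgap21, a GTPase-activating protein, had 52 and 45. Their unadjusted p ran from 0.00989 for Lmo7 to 0.0544 for Paip2, and the adjusted p by edgeR was 0.938 for each. Genes at 0 in both eggs entered the test on counts in other libraries. Of the tested protein-coding genes, 66 were at 0 in both eggs and 15 in all zygotes. With untested genes included, 16 were counted in all 3 zygotes and no egg, and 45 in both eggs and no zygote. Kdm7a (11 and 27 egg counts) and Ptpn13 (14 and 16) were among the 45 and untested. Presence in 3 libraries is a stricter demand than in 2. This list thus cannot show whether more mRNAs were gained than lost.

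The 12 named mRNAs with the smallest p toward lower levels in zygotes rested mostly on 1 egg library. Cyp11a1, the enzyme that starts steroid synthesis in follicle cells, had 160 and 9 counts in the eggs and 0 in the zygotes. It is a marker of cumulus and granulosa cells, and 10 of the 13 defining markers of those cells were at 0 in all 5 libraries. Summed, the 13 took 0.765% and 0.0404% of protein-coding counts in the eggs and 0.0135%, 0% and 0% in the zygotes. In such pooled samples fewer cells of a type and less RNA per cell cannot be told apart, and the part of follicle cells in this value was not tested. Igsf11, an adhesion protein, had 63 counts in egg library 1, and Smc1a, a cohesin subunit, had 33 there. Safb2 (34 counts), Ing4 (14) and Zfr (10), all nuclear proteins, were likewise counted in egg library 1 alone. In egg library 2 alone, Bms1, a GTPase of ribosome assembly, had 29 counts, the RNA-binding protein Rbm6 had 22 and the histone reader Spin1 had 6. These 8 genes were listed at 0 in the other egg and in the 3 zygotes, and leaving out that egg library left no count to compare.

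The other 3 were counted in both eggs and in at least 2 zygotes. Mllt10, a cofactor of histone methylation, was at 1076 and 1281 CPM in the eggs and 298, 80.2 and 0 CPM in the zygotes. Rbbp6, a ubiquitin ligase that also acts in mRNA 3′-end formation, was at 2202 and 1831 CPM in the eggs and 1014, 200.4 and 203 CPM in the zygotes. Slc12a2, a sodium-potassium-chloride transporter, was at 205 and 1098 CPM in the eggs and 59.6, 80.2 and 0 CPM in the zygotes. A level of 3 counts was 89.4, 120 and 304 CPM in zygote libraries 1, 2 and 3. Every zygote of Slc12a2, libraries 2 and 3 for Mllt10 and library 3 for Rbbp6 lay under it. In all 3 genes the groups did not overlap, with unadjusted p between 0.0970 and 0.103 and an adjusted p of 0.938 by edgeR. Map1b, a microtubule-associated protein counted much more deeply, showed a smaller and tighter difference. It was at 32726 and 43570.2 CPM in the eggs and 19496, 18478 and 20070.0 CPM in the zygotes, which edgeR fitted as a log2 fold change of -0.98 ± 1.06 (SE) with an adjusted p of 0.996.

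**Figure D4:**
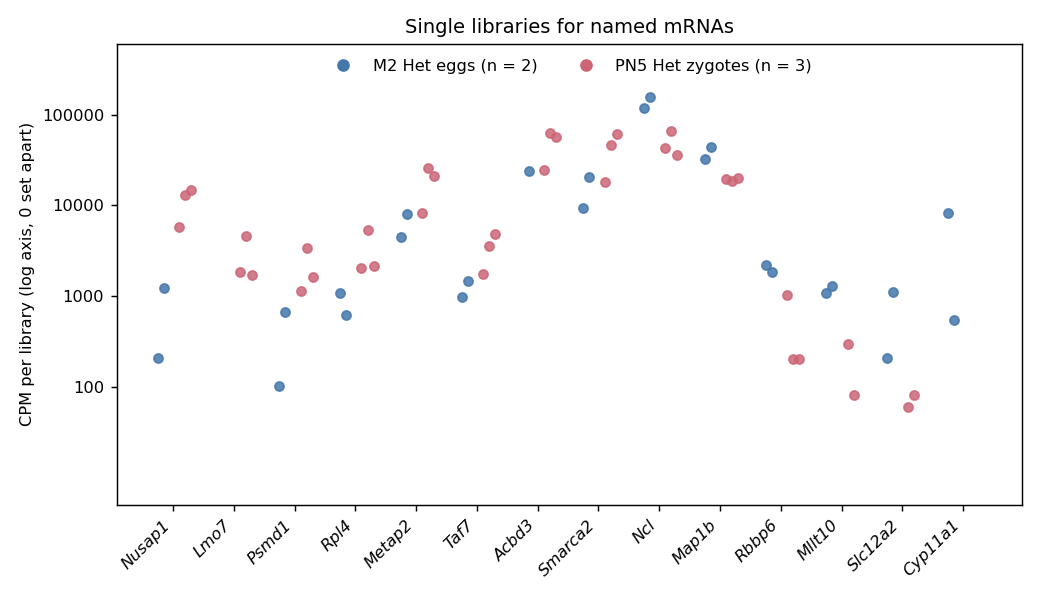
CPM in single libraries of named mRNAs (log axis), eggs in blue and zygotes in red. Values of 0 fall below the axis and are not drawn, so Lmo7 shows no eggs and Cyp11a1 no zygotes. For the same reason Acbd3 lacks egg library 1, and Mllt10 and Slc12a2 lack zygote library 3. The zygotes lie above the eggs from Nusap1 to Acbd3 and below them from Ncl to Cyp11a1, and for Smarca2 the groups overlap.

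Genes of the nucleolus and of ribosome biogenesis were higher in zygotes for most tested members, while Ncl, which held most of the list's counts, was lower. Of the list's 105 members 24 were tested, of which 19 were higher and 5 lower in zygotes with a median log2 fold change of 1.23, while over all 533 tested genes 273 were higher and 253 lower with a median of 0.05. In KO donors the list's median was -0.48, of the opposite sign, against 0.0018 over all tested genes. None of the 24 was called (the background was 0%), and 3 had an unadjusted p under 0.05, beside 17 of all 533 tested genes (3.19%). Of these 3, Dkc1 and Las1l were listed at 0 in both eggs and Bms1 was listed at 0 in all zygotes. With members listed at 0 in one group set to their bound, the median was 1.02, and over the 19 members counted in both groups it was 0.82, against -0.17 over the 445 tested genes counted in both. Without egg library 1 it was 0.45 and without zygote library 2 it was 0.40. Over the 9 members with counts in all 5 libraries, 6 were higher. Genes could pass the filter on counts outside the eggs. Of all tested protein-coding genes, 66 were at 0 in both eggs and 15 in all zygotes. The 19 of 24 thus depends in part on which genes were tested, and the count without the filter is given with the alternatives below. Ncl held 8312 of the list's 10967 counts, so the list's summed share went the other way, from 12.1% and 12.96% in the eggs to 6.002%, 8.42% and 6.34% in the zygotes. Without Ncl the share was 1.15% and 1.33% in the eggs and 2.07%, 3.49% and 2.26% in the zygotes, and the groups did not overlap.

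Single members show the size of the spread behind these numbers. Ddx21, an RNA helicase of rRNA synthesis and processing, was at 1024 and 1098 CPM in the eggs and 2445, 2405 and 2635 CPM in the zygotes, which edgeR fitted as a log2 fold change of 1.23 ± 1.204 (SE) with an adjusted p of 0.996. The related helicase Ddx24 was at 256 and 427 CPM in the eggs and 775, 681 and 1520.5 CPM in the zygotes. These 2 and Dkc1 were the members whose zygotes lay above both eggs, 3 of 24, against 33 of all 533 tested genes (6.19%). Ncl was the only member whose zygotes lay below both eggs, 1 of 24, against 56 of all 533 (10.5%). The exact permutation test of the list's share, two-sided over 10 arrangements of the libraries, gave a p of 0.1, which is the smallest that this design allows, and an adjusted p of 0.92 over the lists. No list could pass in this design.

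For 2 of 5 lists of chromatin, DNA and transcription genes every zygote library had a larger share than both eggs, and for the other 3 the groups overlapped. Chromatin remodelling complexes took 2.38% and 2.49% of protein-coding counts in the eggs and 4.35%, 4.75% and 7.80% in the zygotes. Smarca2, an ATPase of the SWI/SNF complex, held 2874 of their 4908 counts and was at 9219 and 20382 CPM in the eggs and 17857, 46136 and 61832 CPM in the zygotes. In CPM its groups overlapped, and without it the list took 1.52% and 0.993% in the eggs and 2.73%, 1.29% and 0.720% in the zygotes, which overlap too. Of the 20 members tested, 13 were higher and 7 lower with a median log2 fold change of 0.41. Smarca4, the sister ATPase of Smarca2, was among the lower ones, at 3789.9 and 915 CPM in the eggs and 835, 321 and 1216 CPM in the zygotes. The RNA polymerase II machinery took 1.05% in each egg and 1.64%, 2.43% and 1.49% in the zygotes, with 6 of 9 tested members higher, Taf7 among them. Zygotes lay above both eggs for 1 of these 9 and 1 of the 20 remodellers, against 33 of all 533 tested genes (6.19%). The exact permutation test gave a p of 0.2 and an adjusted p of 0.92 for either list. In KO donors the median log2 fold change was -0.27 for the polymerase list and 0.49 for remodellers.

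Histone variants and chaperones took 9.44 ± 0.759% in the eggs and 7.77 ± 2.36% in the zygotes, with 7 members higher and 6 lower. Anp32b held 5053 of its 10737 counts, and without it the list took 3.63 ± 1.999% and 4.45 ± 2.15%, so that the means lay the other way. Both Dek and Chaf1a, the large subunit of the replication-coupled assembly factor CAF-1, belong to it. Chaf1a had 26, 50 and 0 counts in the zygotes and 0 in the eggs. DNA methylation and histone modification enzymes took 2.697 ± 0.0737% and 2.37 ± 1.13%, with 10 members higher and 11 lower. The maintenance DNA methyltransferase Dnmt1 was at 563 and 1281 CPM in the eggs and 1848, 3928 and 203 CPM in the zygotes, and Setd5, a SET-domain protein of chromatin, at 2919 and 1220.5 CPM and then 745, 762 and 0 CPM. Zygote library 3 was the lowest of the 5 for both. DNA replication and repair genes took 3.01 ± 0.804% and 3.502 ± 1.16%, of which Top1 held 3105 of 3730 counts, with 3 members higher and 3 lower.

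Lists of protein synthesis and turnover gave no common direction. Translation factors took 7.10 ± 1.26% in the eggs and 6.91 ± 4.23% in the zygotes. Eif5b held 6119 of their 7239 counts, and 4 of 11 tested members were higher. Cytosolic ribosomal proteins took 0.344% and 0.144% in the eggs and 1.02%, 0.506% and 0.325% in the zygotes, with 3 of 3 tested members higher. Rpl4 was at 1076 and 610.2 CPM in the eggs and 2057, 5291 and 2129 CPM in the zygotes. Rps25 had 1 count in each egg and 26, 5 and 3 counts in the zygotes. The third, Rps14, overlapped, with 26 and 5 counts in the eggs and 120, 13 and 1 in the zygotes. Near-identical pseudogene copies make the assignment of such reads uncertain. Ubiquitin and proteasome genes took 0.282% and 0.0854% in the eggs and 0.452%, 0.651% and 0.337% in the zygotes, so that every zygote lay above both eggs, with 3 of 3 tested members higher. Psmd1, a base subunit of the proteasome's regulatory particle, was at 102 and 671 CPM in the eggs and 1133, 3367 and 1622 CPM in the zygotes. It held 151 of the list's 490 counts. Without it the list took 0.273% and 0.0359% in the eggs and 0.349%, 0.398% and 0.151% in the zygotes, which overlap. The ubiquitin ligase Huwe1 was at 563 and 183 CPM in the eggs and 775, 762 and 1318 CPM in the zygotes. Zygotes lay above both eggs without overlap for 2 of 3 tested ribosomal proteins and 2 of 3 ubiquitin and proteasome genes. Among translation factors this held for 0 of 11, and 1 of 11 lay below. Over all 533 tested genes 33 lay above (6.19%) and 56 below (10.5%). None of the members of these lists was called (0% of all tested genes). In KO donors the median log2 fold change was -0.48 for ribosomal proteins and -0.28 for ubiquitin and proteasome genes.

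**Figure D5:**
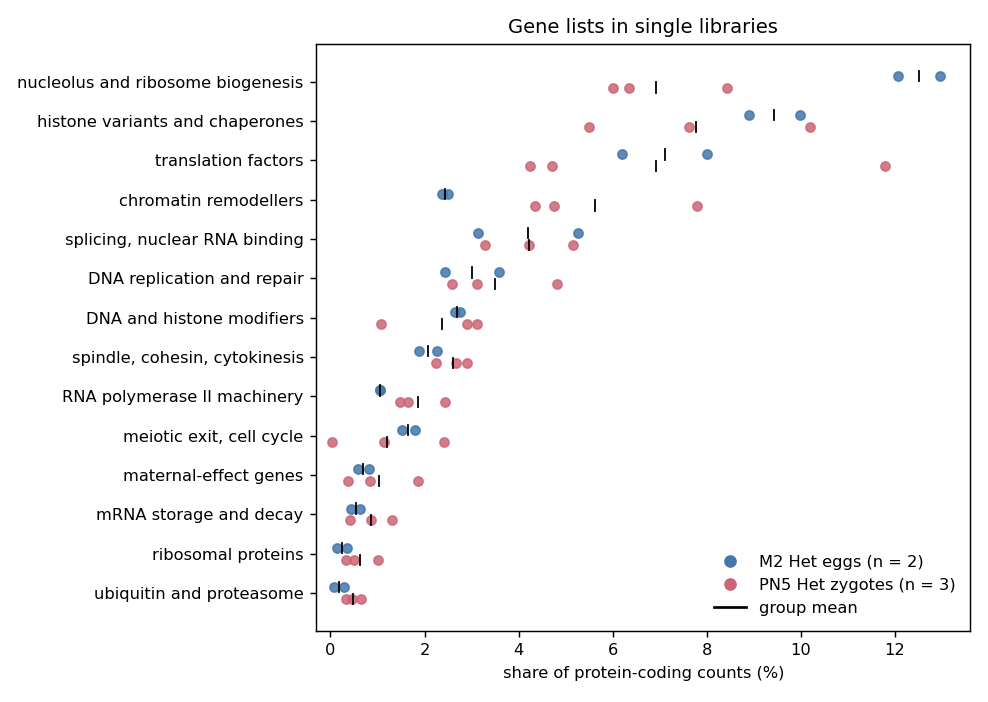
Share of protein-coding counts (%, horizontal axis) of 14 gene lists in single libraries, eggs in blue and zygotes in red, with black bars for group means. Nucleolar genes lay at 12.1% and 12.96% in the eggs and between 6.002% and 8.42% in the zygotes, chromatin remodellers at 2.38% and 2.49% and then between 4.35% and 7.80%, and most other lists overlap.

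Genes of the spindle, kinetochore, cohesin and cytokinesis took 2.07 ± 0.259% in the eggs and 2.61 ± 0.335% in the zygotes, with 8 tested members higher and 9 lower. Nusap1 lay above the eggs, and without it the list took 1.87% and 2.17% in the eggs and 1.71%, 1.69% and 1.196% in the zygotes. The condensin subunit Smc4 was at 5070.2 and 4516 CPM in the eggs and 3249, 1643 and 507 CPM in the zygotes. The kinesin Kif20b, at 871 and 1342 CPM and then 566, 481 and 304 CPM, and the cohesin regulator Pds5b, at 819 and 366 CPM and then 149, 160.3 and 304 CPM, also lay below both eggs in every zygote. A level of 3 counts was 89.4, 120 and 304 CPM in zygote libraries 1, 2 and 3, so these values rest on few counts. Zygotes lay below both eggs for 3 of the 17 tested members and above for 1. Over all 533 tested genes 56 lay below (10.5%) and 33 above (6.19%). Incenp, the scaffold of the chromosomal passenger complex, was at 0 and 2136 CPM in the eggs and 1848, 5331 and 2737 CPM in the zygotes, which overlap. Cytoskeleton and motor proteins took 16.5 ± 3.28% and 14.3 ± 4.99%, the largest share of any list in the eggs, with 13 members higher and 15 lower. Rdx, which ties actin to the membrane, was at 7221 and 9459 CPM in the eggs, 7035 CPM in zygote library 1 and 0 in the other zygotes.

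The remaining lists differed little against their spread. Splicing and nuclear RNA-binding proteins took 4.19 ± 1.50% in the eggs and 4.22 ± 0.939% in the zygotes, with 21 members higher and 16 lower. Sf3b2, a subunit of the U2 snRNP, had 0 counts in the eggs and 40, 32 and 3 in the zygotes. Maternal mRNA storage, tailing and decay factors took 0.534 ± 0.145% and 0.857 ± 0.447%, with 5 members higher and 4 lower. Maternal-effect genes, which the egg must supply for the embryo to develop, took 0.701 ± 0.159% and 1.03 ± 0.752%, with 4 higher and 3 lower, and 0.701% and 0.703% without Npm2. Meiotic exit and cell cycle regulators took 1.66 ± 0.202% and 1.19 ± 1.19%, with 2 members tested, both lower. Protein folding and stress response genes took 2.73 ± 3.32% and 1.44 ± 1.91%, with 2 higher and 3 lower. The chaperone Hsp90aa1 was at 2458 and 6712 CPM in the eggs and 3398, 1042 and 0 CPM in the zygotes. Counts were too few to describe the lists of egg coat and gamete fusion genes (28 counts over the 5 libraries), nuclear-encoded oxidative phosphorylation subunits (41), pluripotency factors (36), 2-cell genes (6), and sperm and blood markers (0). The wider list of cumulus and granulosa genes had 345 counts, with 2 tested members, both lower.

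Nuclear and structural noncoding RNAs were also counted. Their list took 14.6% and 4.16% of the counts outside ribosomal and mitochondrial rows in the eggs and 8.03%, 5.06% and 3.34% in the zygotes, with 5 members higher and 9 lower. Malat1 held 4136 of the list's 11172 counts, and without it the share was 5.04% and 2.53% in the eggs and 5.77%, 4.81% and 3.28% in the zygotes, so that the means lay the other way, at 3.79% and 4.62%. The list is not of nuclear RNAs alone: the vault RNA Vaultrc5, named after its values were seen, held 1766 of the 2177 counts in zygote library 2 and 358 of the 412 in zygote library 3. Malat1, a nuclear speckle RNA, was at 133311 and 26179 CPM in the eggs and 29453, 4329 and 811 CPM in the zygotes, and the groups overlapped. The small nucleolar RNA Snora73b was at 7733 and 1465 CPM in the eggs and 656, 120.2 and 0 CPM in the zygotes. Rpph1, the RNA of RNase P, lay the other way, at 409.7 and 549 CPM in the eggs and 2415, 1683 and 1419 CPM in the zygotes. Egg library 1 stood out with the highest level of Malat1, Snora73b and Cyp11a1 alike.

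The same passage in KO donors rests on libraries that do not enter the Het group means. Both comparisons share the gene filter, scaling and spread of the same fit. It gave 0 of 533 called genes (0%) by edgeR, 20 genes at an unadjusted p under 0.05 (3.75%), 1 call by DESeq2 (Chaf1a) and 0 by limma-voom. Among tested protein-coding genes the KO groups did not overlap for 13 with the zygotes above (2.84%) and 29 with the zygotes below (6.35%). The test of the difference between the Het and the KO change called 0 of 533 genes (0%) by edgeR, with a smallest adjusted p of 1.00 and 22 genes at an unadjusted p under 0.05 (4.13%), and 0 by DESeq2. No change is therefore shown to be particular to Het donors. Over 121 protein-coding genes with counts in all 10 egg and zygote libraries, 70 had estimates of the same sign in both genotypes, and the Spearman correlation of the log2 fold changes across genes was 0.159.

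Of the 12 mRNAs chosen by p as higher in Het zygotes 6 had a higher KO estimate too, and of the 12 lower 4 had a lower one. In KO, Nusap1 was at 754 ± 766 CPM in eggs (n = 2) and 1002 ± 782 CPM in zygotes (n = 3), a log2 fold change of 0.50, and the difference from Het was 3.47 with an unadjusted p of 0.067 and an adjusted p of 1.00 by edgeR. Ncl was at 115327 ± 24005 CPM in KO eggs and 82975 ± 37636 CPM in KO zygotes. Lmo7 had 0 counts in both KO eggs and 18, 0 and 90 in KO zygotes. Cyp11a1 lay the other way, at 0 and 5 counts in KO eggs and 47, 0 and 340 in KO zygotes. No gene had zygotes above both eggs without overlap in both genotypes, and 4 had them below: Kif20b, Ktn1, Smc4 and Rbbp6, found by that count after the values were seen. Of 457 tested protein-coding genes, 43 (9.41%) lay below in Het and 29 (6.35%) in KO, and 30 (6.56%) and 13 (2.84%) above. How many genes would be shared if the genotypes were unrelated was not tested. Ktn1, a kinesin-binding protein of the endoplasmic reticulum, was at 5685 and 6468 CPM in Het eggs and 3786, 3407 and 0 CPM in Het zygotes, and at 7977 ± 291 and 3102 ± 1044 CPM in KO. Kif20b was at 1445 ± 211 CPM in KO eggs and 512 ± 140.3 CPM in KO zygotes.

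In early 2-cell embryos of Het donors (n = 3), Nusap1 had 1, 2 and 19 counts, at 289, 671 and 1000 CPM, below every zygote. The first 2 lie under the level of 3 counts in their libraries, 868 and 1006 CPM. Ncl was at 17364, 14086 and 5842 CPM, below every zygote on this scale. Protein-coding genes held 39.0% of the counts outside ribosomal and mitochondrial rows in the first 2-cell library. In the Het zygotes they held 84.2%, 77.2% and 69.9%. The order of Ncl need not hold as a share of protein-coding counts, which was not compared here. Cdk11b was at 18232, 116709 and 65047 CPM, where its zygotes held 9182, 30503 and 0 CPM. These libraries held 1059 to 7795 protein-coding counts, fewer than any Het egg or zygote library, and no test was made between them and the zygotes.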

How the data were processed

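Fragments were measured after digestion with 100 units of RNase I for 45 min, a 4 h pull-down and 22 PCR cycles, per the labels' protocols. The authors deposited estimated counts per gene as whole numbers. The genome build was GRCm38 and the tools named were StringTie 2.1.4, STAR 2.7.6a, deepTools 3.5.1 and cutadapt, per the submitters' processing notes. How multiply mapped reads were counted is not given in the sources used. Such PCR reads are not independent molecules, so floors and intervals cover counting error only.

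Whole numbers were read as rounded expected counts. The 3 rRNA_ and 37 mt- rows of 55490 were dropped. Biotypes and coordinates came from RefSeq's GRCm38.p6 annotation, matched by symbol (39101 genes) or older symbol (164). Genes passed filterByExpr (minimum count 10), which left 533, of them 457 protein-coding. One edgeR 4.0.16 quasi-likelihood model (R 4.3.3, TMM, robust) was fitted to all 15 libraries with 6 group means and 9 residual degrees of freedom, after tests on simulated data. Genes were called at an adjusted p under 0.05. List shares used exact permutation tests (scipy 1.17.1). Alternatives included limma 3.58.1 (voom) and DESeq2 1.42.0.

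The named genes were the 12 smallest p in each direction with at least 100 CPM, the 12 highest shares in each group, and up to 4 members of each of 23 lists. Of the last, those not needed for a comparison were left unnamed. In addition, 1 gene that the rule names is not reported here. Members and lists were chosen with earlier results of these data known. A planned count of charged stretches in the encoded proteins was not run, since protein sequences were not used here.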

Additional observations from a re-analysis of the deposited data

Results flagged for a closer look

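Most counts lay outside the mRNA comparison. Over the 5 Het egg and zygote libraries together, rows of cytosolic ribosomal RNA held 84.9% of all counts and mitochondrial rows 11.5%. Neither entered the tests, and the series holds no untagged control against which to set them. By library the ribosomal share was 81.8% and 91.9% in the eggs and 76.8%, 86.4% and 84.1% in the zygotes. The mitochondrial share was 11.6% and 5.53% in the eggs and 18.2%, 9.97% and 14.2% in the zygotes. The groups overlap in both.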

How the results depend on the processing

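The number of called genes stayed at 0 under every alternative run except DESeq2, which called 3 genes between Het eggs and zygotes, 1 between KO eggs and zygotes and 0 for the difference between them. Those alternatives were limma-voom, DESeq2 size factors, library totals, no filter, a mean of at least 20 counts, ribosomal and mitochondrial rows kept, protein-coding genes only, fits to 10 or 5 libraries, the replicate block, leaving out each Het library and, chosen after seeing the data, only genes counted in all 5 Het libraries. Where 1 egg library was left out, the lone egg was assumed to vary like the other groups. Without one library the Het count ran from 0 to 0 called. Deviations from the group means correlated at 0.210 and 0.105 in the 2 same-numbered pairs and at -0.210 to 0.09999 in the others, but with 2 eggs, whose deviations mirror each other, and 2 pairs this does not settle whether the numbers pair libraries. With the replicate block 0 genes were called and 19 had an unadjusted p under 0.05. The planned count of charged stretches was not run.

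Nusap1 was higher and Ncl lower in zygotes under all 18 settings, with log2 fold changes of 3.17 to 5.65 and -1.74 to -1.18. For both genes the groups did not overlap, so refits of the same libraries had little room to change the sign. Other settings gave 30 of 52 (no filter), 8 of 9 (mean of at least 20 counts) and 6 of 9 (counts in all 5 libraries) nucleolar genes higher in zygotes, since they test other sets of genes. A few small fold changes changed sign, and the cause was not tested. Lrrfip1 was at 0.0740 with library totals, 0.101 with a mean of at least 20 counts, 0.0433 with ribosomal and mitochondrial rows kept, 0.0874 with the replicate block, and -0.53 to 0.48 without one library. Top1 was at 0.0161 with library totals, 0.0173 with a mean of at least 20 counts, 0.45 with the replicate block, and -0.53 to 0.35 without one library. Without one library the range was -0.72 to 0.0595 for Eif5b, -1.96 to 0.31 for Cdk11b and -1.50 to 2.16 for Rps14.

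The share of a list in zygotes minus that in eggs, in percentage points, changed sign without one library for 13 lists. The range was -0.163 to 1.06 for DNA replication and repair, -0.0319 to 0.0115 for egg coat genes, -9.17 to 1.32 for nuclear noncoding RNAs, -0.0526 to 0.0194 for oxidative phosphorylation, -0.0535 to 0.0138 for pluripotency factors, -4.89 to 0.147 for the cytoskeleton, -3.64 to 1.05 for protein folding, -1.03 to 1.09 for splicing, -2.63 to 1.15 for translation factors, -0.0105 to 0.00301 for 2-cell genes, -0.0894 to 0.645 for maternal-effect genes, -0.711 to 0.316 for DNA and histone modification enzymes and -1.07 to 0.115 for cell cycle regulators. Splicing genes were at -0.0503 with all counts outside ribosomal and mitochondrial rows as denominator. In the shallowest library, with 11243 counts in tested genes and a TMM factor of 0.877, a level under 304 CPM is fewer than 3 counts.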
